A study of Mus musculus with 37 samples.

Results

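TRBV24 is a variable (V) segment of the mouse T cell receptor beta locus, known in the older literature as Vbeta17. All clonotype rows whose best V segment was TRBV24 were taken from the deposited clonotype lists of 37 lymph node libraries. They numbered 279850 of 1704980 rows (16.4%) and held 9265385 of 47131913 reads (19.7%). A clonotype row is one rearranged nucleotide sequence of the complementarity-determining region 3 (CDR3) in 1 library, with the number of reads that carried it. The files give 1 allele name for every TRBV24 row, so alleles were not separated.

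A beta chain is assembled in the thymus by joining a V, a D and a J segment. Bases are trimmed from the segment ends and untemplated bases are inserted between them, and the CDR3 that spans this joint contacts the peptide presented by MHC. TRBV24 is known as a strain-dependent segment: some inbred strains carry a form with a stop codon, others carry an open form, and T cells with the open form are removed during development in mice that express the MHC class II molecule I-E. In the RefSeq annotation of GRCm38.p6, which is from another strain than FVB/N, Trbv24 lies on chromosome 6 between Trbv23 and the pseudogene Trbv25. The build used for the files is not given in the sources used here, so no coordinates are printed.

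The libraries were made from genomic DNA of lymph nodes, 1 library per mouse. Of the mice, 32 were MMTV-PyMT females, in which the polyomavirus middle T antigen is driven by the mouse mammary tumour virus promoter and mammary tumours develop. The study asked how a CSF1R inhibitor with chemotherapy, alone and with an antibody to PD-1, alters T cell responses. All MMTV-PyMT groups used here received the agent labelled PTX at 10 mg/kg from 85 days of age, every 5 days. The PTX groups (2 mice at the time labelled d105, 3 at d95) received no PLX3397. The PLX+PTX groups (6 and 3 mice) also received the CSF1R inhibitor PLX3397 in chow at 40 mg/kg per day from 80 days. The PLX+PTX+aPD-1 groups received in addition an antibody to PD-1 from 87 days, 1.0 mg and then 0.5 mg every 5 days, and the labels divide them into R (6 mice at d105, 5 at d95) and NR (4 and 3 mice), letters that the labels do not spell out. For mice without the antibody the protocol names a rat IgG2a isotype control. The group WTNT (5 mice, d105) has the genotype label FVBN and no agent named, and there is no WTNT group at d95.

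The germline end of TRBV24 within the CDR3 was read from the 5287 clonotypes whose V end the files give as untrimmed, and 94.1% of them carried it. Its first 15 bases encode the residues CASSL, the last 2 begin the next codon, and it is shown because it sets the residues described below. Capitals mark those 2 bases.
TRBV24 end: tgtgccagcagtctgTA
The next sequences are the most widely shared rearrangements of TRBV24, each in its most widespread nucleotide form. Here capitals mark bases assigned to neither V, D nor J. The first 3 lines encode the same CDR3, the TRBV24 clonotype found in most libraries, and differ only around the inserted bases. Clonotypes with a CDR3 of 15 or more residues are named by residues at its centre.
GGRG clonotype with TRBJ2-3, form 1: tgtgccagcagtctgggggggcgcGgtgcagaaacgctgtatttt
GGRG clonotype with TRBJ2-3, form 2: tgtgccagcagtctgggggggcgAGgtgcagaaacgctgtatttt
GGRG clonotype with TRBJ2-3, form 3: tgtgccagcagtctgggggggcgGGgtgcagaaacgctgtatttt
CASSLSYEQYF with TRBJ2-7: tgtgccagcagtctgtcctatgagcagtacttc
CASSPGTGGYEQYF with TRBJ2-7: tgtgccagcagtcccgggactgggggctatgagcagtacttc
YGTGG clonotype with TRBJ2-7: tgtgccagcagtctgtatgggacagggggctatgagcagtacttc
SGGS clonotype with TRBJ2-3: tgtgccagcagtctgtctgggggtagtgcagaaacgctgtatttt
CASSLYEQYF with TRBJ2-7: tgtgccagcagtctgtatgagcagtacttc
The 3 forms of the GGRG clonotype held 1, 2 and 2 inserted bases, and the other 5 sequences held 0. The next lines are clonotypes described below by day or treatment, except the last, which held the largest share of TRBV24 reads in any library.
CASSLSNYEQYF with TRBJ2-7: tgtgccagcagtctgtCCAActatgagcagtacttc
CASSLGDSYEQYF with TRBJ2-7: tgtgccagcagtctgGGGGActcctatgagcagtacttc
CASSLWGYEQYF with TRBJ2-7: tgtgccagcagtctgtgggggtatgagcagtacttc
PTGTGG clonotype with TRBJ2-7: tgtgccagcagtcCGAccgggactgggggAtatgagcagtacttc
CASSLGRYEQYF with TRBJ2-7: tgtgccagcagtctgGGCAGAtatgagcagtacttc
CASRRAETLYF with TRBJ2-3: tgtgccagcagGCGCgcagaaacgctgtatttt

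Total reads per library ranged from 1090573 to 2831566 at d105 and from 90648 to 917752 at d95, so day and depth cannot be told apart. The 2 days hold different mice. The mouse numbers at d95 form a block apart from those of the d105 MMTV-PyMT mice, so day and this block cannot be told apart either. The shallowest library, d95 NR replicate 1, held 409 TRBV24 clonotypes and the others 2204 to 14290. Of 21 V segments in the files, the 9 on a list of segments known to be deleted in FVB/N mice had mean read shares of 0.000176% to 0.0946%.

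TRBV24 carried the most reads of any V segment in 37 of 37 libraries, with a mean of 20.9% ± 3.45 (SD, n = 37) and a range of 16.9% to 33.5%. Counting each clonotype once, TRBV24 also had the highest mean share, 16.8% ± 1.17 (SD, n = 37), and ranked first in 27 of 37 libraries. TRBV1 ranked first in 9 others. On the authors' normalised clone counts, which multiply the reads of each V-J pair by a fixed factor, TRBV24 held 10.2% ± 4.002 (SD, n = 37) and ranked 6 by mean, with TRBV4 first in 35 libraries and TRBV24 in 2. The rank of TRBV24 thus differed between scales. The normalised count per read was 0.893 ± 0.0064 for TRBV24 and 1.95 ± 0.366 for all segments together (SD, n = 37).

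A typical TRBV24 clonotype carried more reads than a clonotype of another V segment. The median number of reads per clonotype was 22 to 75 over the libraries for TRBV24 and 10 to 29 for the others. The mean number of reads per TRBV24 clonotype was 1.31 ± 0.228 times that of the others (SD, n = 37), with a lowest ratio of 1.13. On normalised counts the direction was the other way on average, as TRBV24 held 10.2% of counts beside 16.8% of clonotypes. Its share of normalised counts was above its share of clonotypes only in d95 PLX+PTX replicate 2 (23.4% against 17.6%) and d95 PTX replicate 3 (20.02% against 18.8%). These are PCR reads without molecular identifiers, so a read is not a cell.

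The share of normalised counts was low and narrow at d105 and higher and wider at d95. At d105 the 6 PLX+PTX libraries ran from 6.94% through a median of 7.09% to 8.53%, with a mean of 7.33% ± 0.598 (SD, n = 6). The 6 R libraries ran from 6.64% through 7.55% to 9.03%, with a mean of 7.70% ± 0.892 (SD, n = 6). The 4 NR libraries held 6.11%, 8.28%, 8.34% and 8.52%, with a mean of 7.81% ± 1.14 (SD, n = 4). The ranges of these 3 groups overlapped. The 5 WTNT libraries held 7.61%, 7.89%, 7.91%, 8.13% and 8.23%, with a mean of 7.96% ± 0.241 (SD, n = 5). The 2 PTX libraries held 8.18% and 8.60%, with a mean of 8.39% ± 0.293 (SD, n = 2). The WTNT libraries lay within the range of the tumour-bearing mice.

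At d95 every library lay above every d105 library. The 5 R libraries held 9.89%, 11.2%, 11.5%, 13.1% and 15.9%, with a mean of 12.3% ± 2.32 (SD, n = 5). The 3 NR libraries held 11.2%, 12.3% and 15.04%, with a mean of 12.8% ± 1.99 (SD, n = 3). Both groups overlapped almost fully. The 3 PTX libraries held 14.0%, 14.7% and 20.02%, with a mean of 16.3% ± 3.27 (SD, n = 3). The 3 PLX+PTX libraries held 11.9%, 16.7% and 23.4%, with a mean of 17.4% ± 5.79 (SD, n = 3). The library at 23.4%, replicate 2, also held the highest read share, 33.5% (95% Wilson interval 33.3% to 33.6%, counting error only). Ordered by mean, the groups rose from d105 PLX+PTX through R, NR, WTNT and PTX of d105 to R, NR, PTX and PLX+PTX of d95. Only 3 of the 8 steps in that order exceeded the larger SD of the groups beside it: WTNT to PTX at d105, d105 PTX to d95 R, and d95 NR to d95 PTX.

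**Figure D1:**
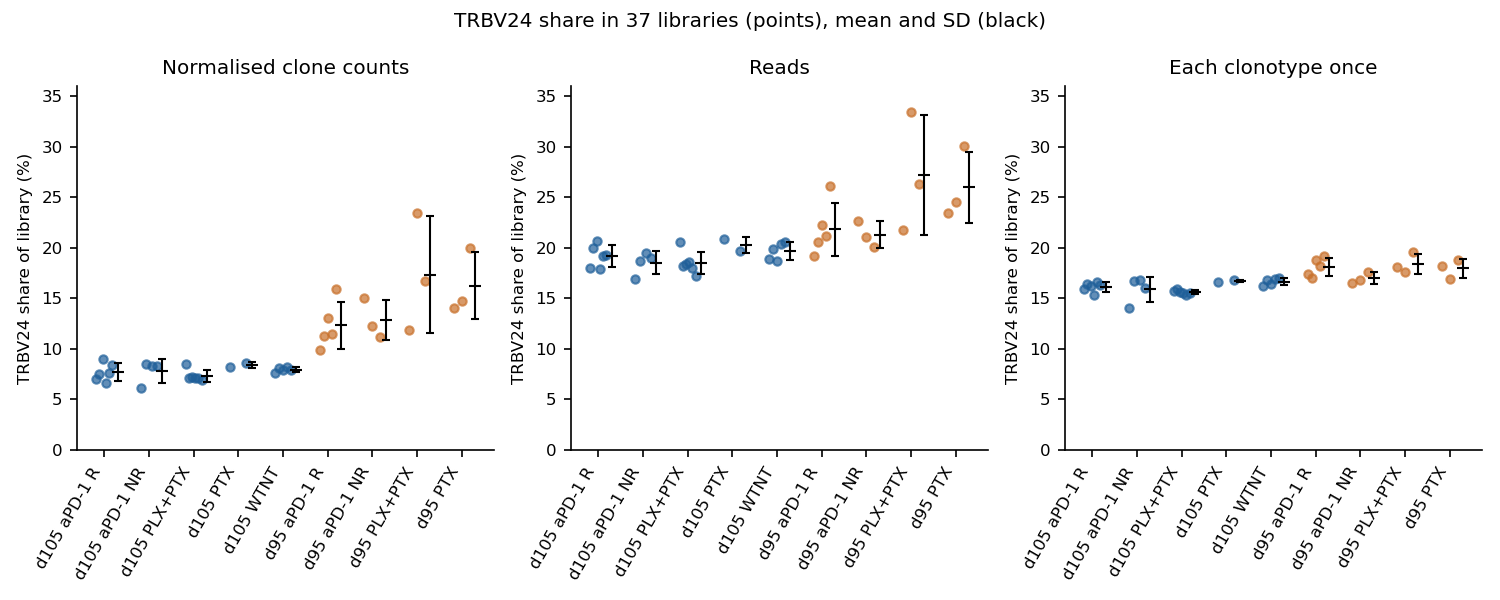
TRBV24 share of each library (%, vertical axis) on 3 scales for the 9 groups (horizontal axis); points are libraries (blue d105, orange d95) and black bars the mean and SD. On normalised counts the d105 libraries lie between 6.11% and 9.03% and the d95 libraries between 9.89% and 23.4%; counted once per clonotype, the days overlap.

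The lower share at d105 than at d95 was the main difference in TRBV24 share between groups. Log2(percent + 0.01) was compared in a limma fit over 24 V and J segments, averaged over the 4 MMTV-PyMT treatments. The TRBV24 share was lower by 0.88 ± 0.09 (log2, SE) in 18 libraries at d105 than in 14 at d95 (limma adjusted p = 6.3e-10). In that comparison 83.3% of all segments tested passed the threshold of 0.05, 41.7% higher and 41.7% lower at d105, so TRBV24 was one among many. The size depended on the scale. It was -0.32 with reads, -0.61 with the second normalised column of the files, -0.43 with edgeR and -0.45 with DESeq2 on reads, and -0.15 counting each clonotype once. With log2 total reads as a covariate, chosen after seeing the data, it was -0.49 (adjusted p = 0.0254, limma). The normalised count per read of TRBV24 was 0.891 ± 0.0052 at d105 (SD, n = 23) and 0.896 ± 0.0073 at d95 (SD, n = 14), while that of the whole library was 2.21 ± 0.131 and 1.51 ± 0.135. Over the 14 d95 libraries the normalised share went with log10 total reads at r = -0.50, rho = -0.76, and over the 23 d105 libraries at r = -0.09, rho = -0.18. These correlations are given as descriptions, and the normalised share is itself computed from the reads of the same library.

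Treatment comparisons within a day showed smaller differences, and no call for TRBV24 share in the limma fit. At d105 the log2 difference was -0.02 ± 0.09 (SE) for R minus NR, 0.07 ± 0.07 for the 10 aPD-1 libraries minus PLX+PTX, -0.20 ± 0.11 for PLX+PTX minus PTX and -0.06 ± 0.07 for MMTV-PyMT minus WTNT. The adjusted p values were 0.897, 0.881, 0.756 and 0.831 in limma, and 0.0% of the 24 segments passed in each. The sign for R minus NR turned to 0.05 with reads. At d95 R minus NR was -0.07 ± 0.22 and turned to 0.03 with reads, and PLX+PTX minus PTX was 0.06 ± 0.24, with limma adjusted p values of 0.868 and 0.975. The 8 aPD-1 libraries at d95 were lower than the 3 PLX+PTX libraries by -0.43 ± 0.20 (limma adjusted p = 0.199), and again 0.0% of segments passed. This value rested on single PLX+PTX libraries: without replicate 1 it was -0.68 (adjusted p = 0.0182), and without replicate 2 it was -0.19 (adjusted p = 0.866). The unadjusted limma p for TRBV24 was above 0.05 in all 7 of these comparisons (lowest 0.0514, aPD-1 minus PLX+PTX at d95). With edgeR and DESeq2 on reads the adjusted p was above 0.05 in all 7 as well, with a lowest value of 0.0725 (edgeR, the same comparison).

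Whether the aPD-1 difference changed between days was tested as an interaction. The difference at d105 minus that at d95 was 0.51 ± 0.20 (log2, SE; limma adjusted p = 0.0959), in a comparison where 4.17% of segments passed. It passed with reads (0.35, adjusted p = 0.0481, limma), with edgeR (0.45, adjusted p = 0.0284) and with DESeq2 (0.52, adjusted p = 0.0314). The limma interaction passed in 2 of 27 fits that left out 1 library. It moved most with the same 2 PLX+PTX libraries of d95: it was 0.75 without replicate 1 (adjusted p = 0.00348) and 0.26 without replicate 2 (adjusted p = 0.882). The corresponding interactions for R minus NR and PLX+PTX minus PTX were 0.05 ± 0.23 and -0.26 ± 0.27, with limma adjusted p values of 0.982 and 0.994.

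TRBV24 joined some J segments more and others less often than the other V segments did in the same libraries. Counting each clonotype once, TRBJ2-5 made up 16.6% ± 0.831 of TRBV24 clonotypes and 13.6% ± 1.12 of the others (SD, n = 37), higher in 37 of 37 libraries. TRBJ2-7, the most used J segment, made up 18.3% ± 0.797 against 23.1% ± 1.14, lower in 37 of 37. TRBJ1-3 (1.60% against 2.68%) and TRBJ1-6 (2.69% against 4.13%) were lower in all 37 libraries as well. The mean differences of these 4 kept their direction when clonotypes were weighted by reads or by normalised count, though on normalised counts TRBJ1-6 was lower in 21 and higher in 16 libraries (2.97% against 3.59%) and TRBJ1-3 lower in 31 and higher in 6. TRBJ2-3 (14.8% against 10.9%) and TRBJ2-4 (10.3% against 8.75%) were higher in 37 of 37 libraries, but were lower on normalised counts, at 6.17% against 8.03% and 7.34% against 9.22%. TRBJ1-2 (5.18% against 3.63%) was higher in 37 of 37 libraries and lower when weighted by reads, at 5.80% against 6.39%. Each of these 7 differences had an adjusted p of 1.2e-05 in a two-sided permutation test that flipped the sign of each library's difference, over 15 measures. The smallest p that 100000 flips can give is 1e-05.

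TRBJ1-4 was slightly higher (3.04% against 2.90%, 28 of 37 libraries, adjusted p = 0.0033 by the same permutation test), and in the d105 libraries alone, an alternative added after seeing the data, it did not pass (adjusted p = 0.0639). TRBJ2-1 (11.5% against 13.1%) and TRBJ1-5 (1.17% against 1.61%) were lower in 36 of 37 libraries, and on normalised counts neither passed. TRBJ2-2 (7.64% against 8.29%) was lower in 30 libraries and higher on normalised counts (7.52% against 6.15%). TRBJ1-1 (7.27% against 7.36%) did not pass (adjusted p = 0.426), was higher on normalised counts (8.64% against 5.30%) and lower when weighted by reads (6.21% against 9.05%). The directions on the 3 scales thus disagreed for 5 of the 12 J segments.

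**Figure D2:**
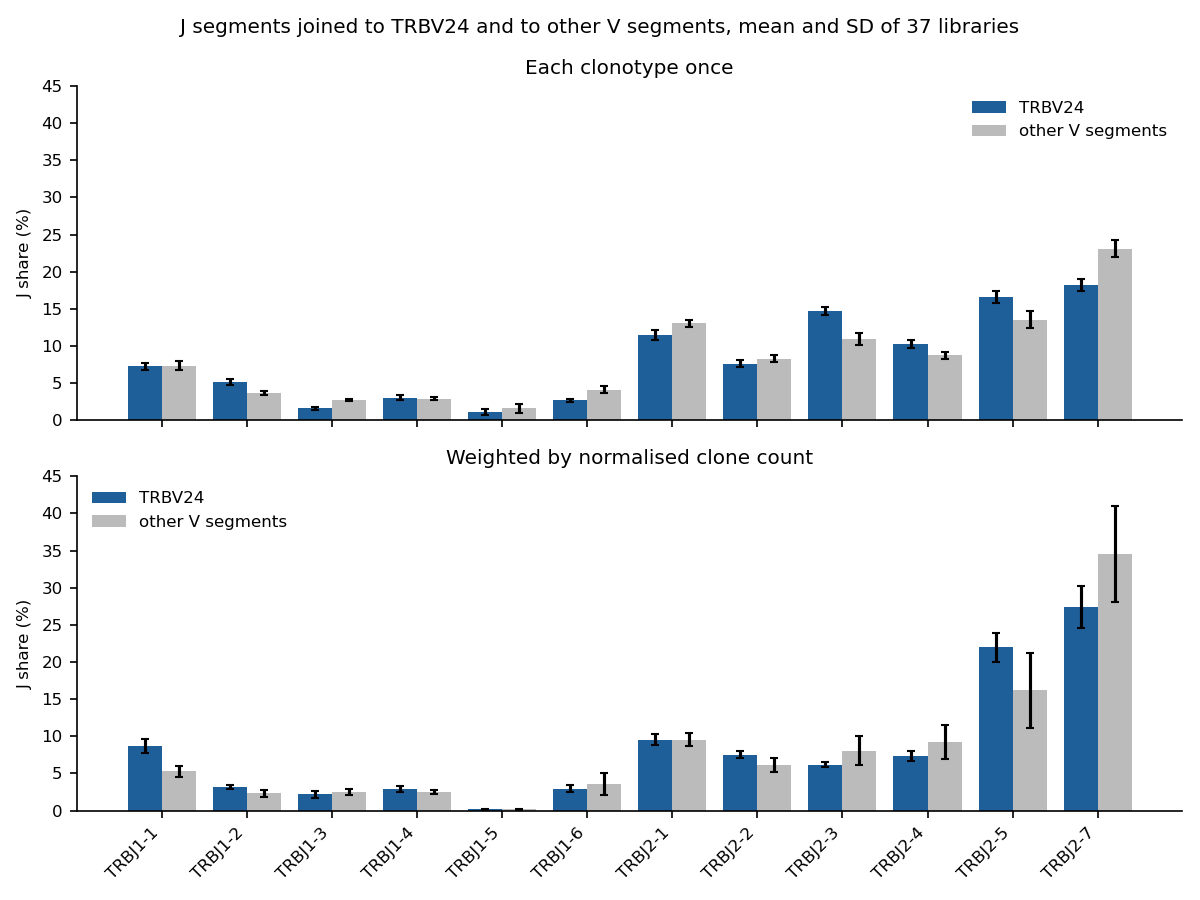
Share of each J segment (%, vertical axis) among TRBV24 clonotypes (blue) and clonotypes of the other V segments (grey), bars and whiskers the mean and SD of 37 libraries, with each clonotype counted once (top) or weighted by normalised count (bottom). TRBJ2-5 is higher and TRBJ2-7 lower with TRBV24 in both panels, and TRBJ2-3 and TRBJ2-4 change sides.

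The V-J pairs of TRBV24 followed the segment by day. Their shares add up to the TRBV24 share, so the direction of most pairs is not a result separate from that of the segment. The 3 most used pairs on normalised counts were TRBJ2-7, at 1.964% ± 0.259 of the library at d105 and 4.40% ± 1.20 at d95 (MMTV-PyMT mice, SD, n = 18 and 14), TRBJ2-5, at 1.77% ± 0.190 and 2.90% ± 0.880, and TRBJ2-1, at 0.748% ± 0.112 and 1.34% ± 0.440. The ranges of TRBJ2-7 at the 2 days did not overlap, 1.51% to 2.35% against 2.997% to 7.19%. Of 12 TRBV24 pairs, 11 were lower at d105 in limma at an adjusted p of 0.05, where 77.6% of all 134 pairs passed, 38.1% higher and 39.6% lower. The called log2 differences ran from -0.60 ± 0.08 for TRBJ1-1 to -1.29 ± 0.10 for TRBJ1-6 (SE). The median over the 12 pairs was -0.81, beside 0.03 over all 134. TRBJ1-5, the rarest pair at 0.0157% and 0.0129% of the library, had a difference of 0.41 ± 0.31 (adjusted p = 0.238). With reads, 8 pairs were called lower and 1 higher, where 19.4% of all pairs were lower and 61.2% higher.

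**Figure D3:**
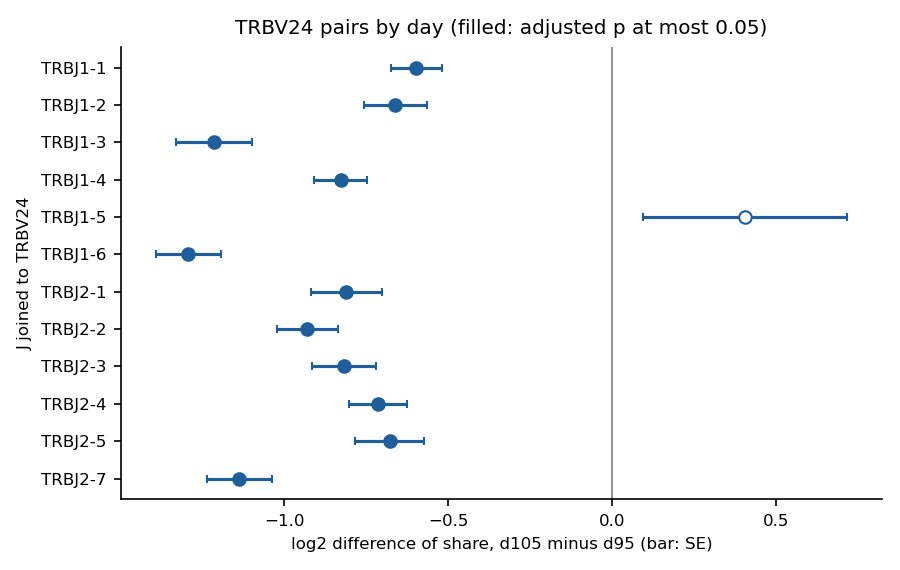
Difference of the share of each TRBV24 V-J pair between d105 and d95 (log2, horizontal axis; bars are the SE of the limma fit) for 12 J segments (vertical axis). The 11 filled points, with an adjusted p of at most 0.05, lie between -1.29 and -0.60, and the open point, TRBJ1-5, lies at 0.41.

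Within a day, 1 TRBV24 pair passed in 1 comparison. TRBV24 with TRBJ1-4 held 0.189% to 0.223% of the 6 PLX+PTX libraries at d105 and 0.250% and 0.277% of the 2 PTX libraries, groups that did not overlap. The log2 difference was -0.37 ± 0.09 (SE; limma adjusted p = 0.0368), where 2.24% of 134 pairs passed, 1.49% higher and 0.746% lower. It lost the call with reads (-0.31) and with a pseudocount of 0.01 (-0.35), and in 6 of 8 fits that left out 1 library. The median over the 12 TRBV24 pairs in that comparison was -0.22, beside -0.03 over all pairs. No TRBV24 pair passed in R minus NR, aPD-1 minus PLX+PTX or MMTV-PyMT minus WTNT at d105, or in any of the 3 comparisons at d95 (limma, with 0.0% of pairs passing in each). At an unadjusted p under 0.05 the counts at d105 were 1, 1 and 0 of 12, beside 16, 3 and 4 of all 134 pairs. At d95 they were 0 for R minus NR, 4 for aPD-1 minus PLX+PTX and 0 for PLX+PTX minus PTX, beside 5, 33 and 1 of 134. With reads in limma no pair passed in these 6 comparisons either. Without PLX+PTX replicate 1, 6 TRBV24 pairs passed as lower in aPD-1 minus PLX+PTX at d95, where 35.8% of all pairs passed, 36 higher and 12 lower. In the interactions with day no TRBV24 pair passed (limma, 0.0% of pairs for R minus NR and aPD-1 minus PLX+PTX, 0.746% for PLX+PTX minus PTX), with 0, 8 and 0 of 12 at an unadjusted p under 0.05, beside 4, 46 and 5 of all 134.

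The CDR3s of TRBV24 carried the residues of its germline end. Leucine stood at position 5, counted from the first cysteine, in 52.3% ± 1.12 of TRBV24 clonotypes and 16.02% ± 0.733 of the others (SD, n = 37). Proline (18.4% against 9.32%) and arginine (10.8% against 6.42%) were also more frequent there in 37 of 37 libraries, while glutamine (3.19% against 22.1%) and alanine (0.851% against 15.4%) were less frequent. At position 6, tyrosine was found in 9.33% ± 0.588 against 0.961% ± 0.0695, and phenylalanine, leucine, tryptophan and serine were also more frequent in 37 of 37 libraries. Aspartate at position 6 was found in 7.67% against 18.4%. These residue shares are descriptions.

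A hydrophobic residue at both positions 6 and 7 was more common with TRBV24 than with other V segments. Here A, F, I, L, M, V, W and Y counted as hydrophobic. Such pairs of residues at the centre of the CDR3 are known from work on T cell self-reactivity. The share was 4.94% ± 0.366 for TRBV24 and 2.50% ± 0.0958 for the others (SD, n = 37), higher in 37 of 37 libraries, with an adjusted p of 1.2e-05 in the permutation test. It was 4.78% against 2.41% on normalised counts. Group means lay between 4.86% and 5.10%, and none of 8 comparisons between groups passed in a two-sided permutation test (smallest adjusted p = 0.847, for MMTV-PyMT minus WTNT at d105, 0.123 percentage points). The p values were adjusted over 4 TRBV24 measures in 8 comparisons. The 2 positions differed by residue. At position 6, Y (9.33% against 0.961%), F, L, W and M were more frequent with TRBV24, and A, I and V less frequent. At position 7, L (5.15% against 6.41%), W (5.57% against 6.44%), A, F, V and Y were less frequent, and I and M slightly more frequent. These shares of single residues were not tested.

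TRBV24 CDR3s were slightly longer than those of the other V segments. The mean length was 14.2 ± 0.0729 residues against 14.0 ± 0.0515 (SD, n = 37), a difference of 0.133 residues that was positive in 37 of 37 libraries (adjusted p = 1.2e-05, permutation test). On normalised counts the difference was 0.0961. Single segments lay on both sides of TRBV24. With each combination of J segment and CDR3 amino acids counted once over all libraries, the mean was 14.39 residues for TRBV24. It was higher for TRBV5 (14.76), TRBV2 (14.56) and TRBV1 (14.43). It was lower for TRBV3, TRBV19, TRBV4, TRBV26, TRBV29 and TRBV20 (13.24 to 14.16). Each length from 14 to 24 residues made up a larger mean share with TRBV24 (14 residues, 31.2% against 30.1%, and 16 residues, 10.5% against 9.23%) and each length from 8 to 13 a smaller one (13 residues, 18.6% against 20.7%). Lengths outside 8 to 24 residues were rare and followed no single direction. At the joint, TRBV24 ends had lost more V bases, 3.34 ± 0.0462 against 2.79 ± 0.0419, and held more inserted bases, 3.79 ± 0.0566 against 3.56 ± 0.0673, each in 37 of 37 libraries. Fewer J bases were lost, 3.11 against 3.29, and fewer clonotypes had no D segment assigned, 19.5% against 22.96%. The V bases are counted from the germline end that the files assign to each segment.

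**Figure D4:**
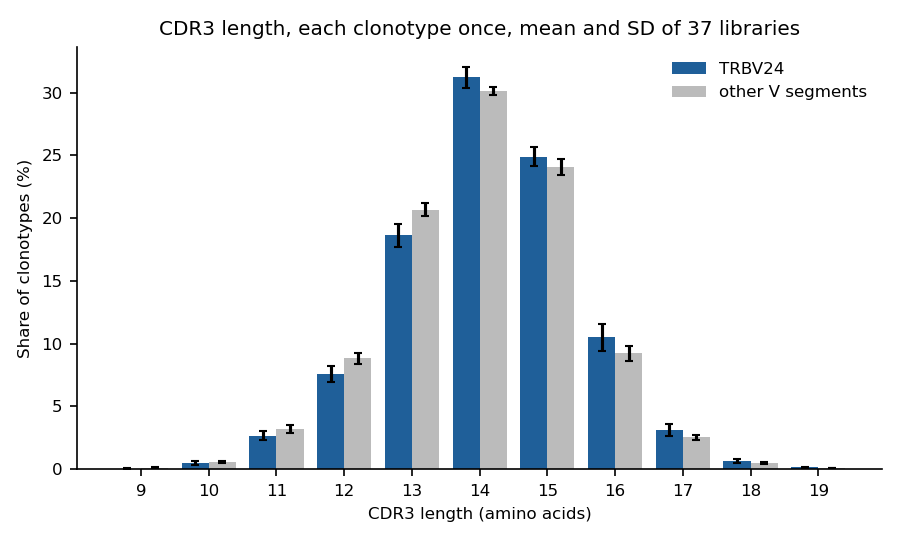
Share of clonotypes (%, vertical axis) by CDR3 length in amino acids (horizontal axis), TRBV24 in blue and the other V segments in grey, bars and whiskers the mean and SD of 37 libraries. TRBV24 is lower at 13 residues (18.6% against 20.7%) and higher at 16 (10.5% against 9.23%).

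Across groups the mean TRBV24 CDR3 length differed by day. It ran from 14.1325 to 14.2984 residues in the 18 MMTV-PyMT libraries at d105 and from 13.9315 to 14.1281 in the 14 at d95, ranges that did not overlap. The difference averaged over 4 treatments was 0.130 residues (adjusted p = 0.00016, permutation within treatments, from the smallest p that 100000 draws can give). It was 0.0217 residues when weighted by normalised count and 0.0279 among clonotypes with at least 10 reads, and passed in neither. The other V segments were longer at d105 too. Their mean was 14.0532 residues in the 23 d105 libraries and 14.0179 over all 37, beside 14.1956 and 14.1514 for TRBV24. Whether the day difference of TRBV24 exceeded that of the other segments was not tested. Day, depth and the block of mouse numbers cannot be told apart. At d105 the length was 14.2084 ± 0.0351 in R (SD, n = 6) and 14.1632 ± 0.0217 in NR (SD, n = 4), with an exact permutation p of 0.0524 and an adjusted p of 0.307. MMTV-PyMT minus WTNT was 0.0477 residues, with a permutation p of 0.0279 and an adjusted p of 0.286. No other length comparison had an unadjusted p under 0.1.

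Most TRBV24 clonotypes were private and a few were found in most mice. Of 159721 distinct TRBV24 clonotypes, defined by J segment and CDR3 amino acids, 79.5% were found in 1 library, 15.7% in 2 to 4, 4.51% in 5 to 18 and 436 (0.273%) in at least 19 of 37. Among the pooled clonotypes of the other V segments 0.251% were found in at least 19. Single segments lay on both sides of TRBV24. This share was higher for TRBV1 (0.471%), TRBV5 (0.364%) and TRBV3 (0.317%). It was lower for TRBV2, TRBV19, TRBV4, TRBV26, TRBV20 and TRBV29 (0.0589% to 0.236%). In an average library 54.5% ± 2.18 of TRBV24 clonotypes were also found in another library, against 52.4% ± 2.03 of the others (SD, n = 37), higher in 35 of 37 (adjusted p = 1.2e-05, permutation test). The 436 widely shared clonotypes held 9.03% ± 0.705 of TRBV24 normalised counts (SD, n = 37). The widely shared clonotypes of the other V segments held 9.26% ± 1.37 of the normalised counts of those segments (SD, n = 37). By day the means were 8.86% at d105 and 9.32% at d95 for TRBV24, against 8.31% and 10.8% for the others. Group means for TRBV24 ran from 8.58% in d105 R to 10.1% in d95 PTX.

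Sharing went with more nucleotide forms and fewer inserted bases. A clonotype in 1 library had 1.02 nucleotide forms on average, one in 5 to 18 libraries 6.07, and one in at least 19 libraries 15.5, beside 13.5 for the other V segments. More libraries offer more chances to see a form, and that part was not tested. Inserted bases fell from 4.99 ± 0.0958 in the private class to 1.83 ± 0.0848 in the most shared one (SD, n = 37), and mean length from 14.5 to 13.6 residues. The share with no D segment assigned rose from 16.1% ± 1.56 to 27.8% ± 3.22. Of the 436 widely shared clonotypes, 102 used TRBJ2-7, 89 TRBJ2-5 and 86 TRBJ2-3. TRBJ2-7 made up 23.4% of them and 16.9% of all distinct TRBV24 clonotypes, TRBJ2-1 7.80% and 12.3%.

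**Figure D5:**
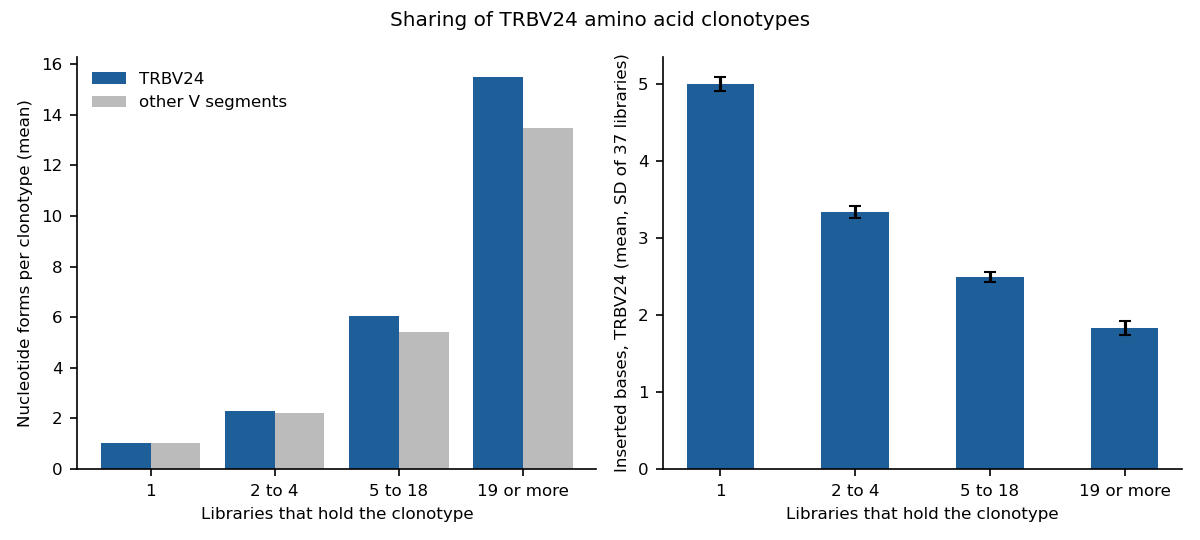
Left, mean number of nucleotide forms per amino acid clonotype (vertical axis) by the number of libraries that hold it (horizontal axis), TRBV24 in blue and other V segments in grey. Right, inserted bases of TRBV24 clonotypes in the same classes, mean and SD of 37 libraries, which fall from 4.99 to 1.83.

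The most widespread TRBV24 clonotype, the GGRG clonotype, was found in 36 of 37 libraries in 28 nucleotide forms, 24 of them with at least 10 reads in a library. The first form shown above was found in 16 libraries and the next 2 in 7 each. Its mean level was 13.5 ± 17.7 CPM, normalised counts scaled to the same total in each library (SD, n = 37). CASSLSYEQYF and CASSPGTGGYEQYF were found in 35 libraries, the YGTGG and SGGS clonotypes in 34 and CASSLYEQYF in 33. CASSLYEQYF, whose printed form holds 0 inserted bases and no assigned D, had 10 forms in all, and that printed form was found in 25 libraries with 5393 reads. Mean levels of these 5 ran from 21.4 ± 25.01 (the SGGS clonotype) to 139 ± 178 (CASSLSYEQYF) CPM (SD, n = 37).

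Clonotypes were tested where 50% or more of the libraries compared held them, and 5 of 406 TRBV24 clonotypes passed between days (limma on log2(CPM + 10)), where 5.22% of all 2394 passed, 4.8% higher and 0.418% lower. All 5 used TRBJ2-7. The 50% was taken over the 32 libraries of both days together. Of the 406 clonotypes, 241 were in 50% or more of the d105 libraries and less than 50% of the d95 libraries, and 3 the other way round. The calls of 3 of the 5 rest on clonotypes of these kinds, so their values are given with no test. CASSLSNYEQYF had 25 to 288 reads in 14 of 18 libraries at d105, and at d95 only 1 and 75 reads in 2 of 14. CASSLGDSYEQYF had reads in 15 of 18 libraries at d105 and in 1 of 14, with 45 reads, at d95. The d95 libraries were shallower, so a clonotype of this size could be missed there. The PTGTGG clonotype was found in 8 of 18 libraries at d105, at 8.86 ± 11.5 CPM, and in 10 of 14 at d95, at 56.8 ± 49.4 CPM (SD, n = 18 and 14).

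The other 2 were found in more than 50% of the libraries of each day. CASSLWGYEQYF was lower at d105 (-1.87 ± 0.48, adjusted p = 0.0183, limma), at 22.2 ± 24.6 CPM (SD, n = 18) against 105.4 ± 103 (SD, n = 14). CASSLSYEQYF was lower too (-1.62 ± 0.46, adjusted p = 0.0361), and held 77.5 ± 79.3 CPM at d105 and 255 ± 237 at d95. Without 1 library at a time, the call of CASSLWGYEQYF held in 32 of 32 fits, and that of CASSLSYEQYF was lost in 7 of 32. Both calls were lost with reads and with a pseudocount of 1 CPM. With reads, 13 TRBV24 clonotypes were called higher and 0 lower, where 6.27% of all clonotypes were higher and 0.167% lower. With the smaller pseudocount 8 were called higher and 0 lower, where 8.52% of all were higher and 0.167% lower.

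Within a day no TRBV24 clonotype passed. At d105, 0 of 908 passed in each of the 4 comparisons (limma, 0.0% of 5242 in all), with 33 for R minus NR, 34 for aPD-1 minus PLX+PTX, 73 for PLX+PTX minus PTX and 39 for MMTV-PyMT minus WTNT at an unadjusted p under 0.05, beside 289, 259, 520 and 277 of all 5242. At d95, 0 of 184 passed in R minus NR (0.207% of 964 in all), in aPD-1 minus PLX+PTX (0.0%) and in PLX+PTX minus PTX (0.104%), with 6, 8 and 17 at an unadjusted p under 0.05, beside 79, 64 and 59 of all 964. With reads or a pseudocount of 1 CPM the count was also 0 in all 7 limma comparisons. 1 TRBV24 clonotype passed in the interaction of PLX+PTX minus PTX with day, where 0.0835% of 2394 passed, 0.0418% higher and 0.0418% lower. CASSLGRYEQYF had 63, 113 and 40 reads in the 3 PLX+PTX libraries at d95 and 0 in the 3 PTX libraries. At d105 it had 146 and 120 reads in the 2 PTX libraries and 0 to 269 in the 6 PLX+PTX libraries. The fitted interaction was -5.09 ± 0.96 (log2, SE, adjusted p = 0.0214), which depends on the pseudocount where a group is at 0, and it was not called with a pseudocount of 1 CPM. It was lost in 4 of 14 fits that left out 1 library, with adjusted p values up to 0.186. In the interactions of R minus NR (0.0835% of clonotypes in all) and aPD-1 minus PLX+PTX (0.0418%) no TRBV24 clonotype passed in limma, with 29 and 28 of 406 at an unadjusted p under 0.05, beside 188 and 184 of all 2394.

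The leading TRBV24 clonotype by reads was a different nucleotide sequence in each of the 37 libraries. Of these 37 sequences, 18 were found in no other library and 19 in at least 1 other, 7 of them in 5 or more libraries. TRBV24 supplied 8 to 32 of the 100 largest clonotypes of a library, with a median of 16, beside its mean shares of 16.8% of clonotypes and 20.9% of reads. The largest share of TRBV24 reads was that of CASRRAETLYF in d105 R replicate 4, with 3131 reads, 0.893% of its TRBV24 reads and 0.160% of the library (95% Wilson interval 0.154% to 0.166%). The same sequence had 2 reads in 1 other library. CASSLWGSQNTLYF led d105 PLX+PTX, with 3523 reads in replicate 1, and its nucleotide sequence was found in 12 libraries, with up to 152 reads in another, and its amino acid sequence in 25. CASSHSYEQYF, the leader of d95 NR replicate 3 with 429 reads, was found in 10 libraries as the same nucleotide sequence, with up to 181 reads in another. The leader of d105 NR replicate 1 (TRBJ1-1, 1470 reads) was found in 6 libraries, with up to 86 reads in another. The amino acid sequence that led d95 PTX replicate 1 (TRBJ2-5, 309 reads) was found in no other library. The leaders of d105 PTX (TRBJ2-1, 1804 reads) and d105 WTNT (TRBJ2-2, 1043 reads) were found in no other library as the same nucleotide sequence. The same held for those of d95 R (TRBJ2-5, 410 reads) and d95 PLX+PTX (TRBJ2-2, 448 reads). The amino acid sequences of these 4 were found in 2 to 9 libraries.

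The 10 largest TRBV24 clonotypes together held 0.764% to 2.42% of TRBV24 reads at d105 and 1.26% to 6.67% at d95, the last in the shallowest library. At d95 R held 1.51% ± 0.229 (SD, n = 5) and NR 3.45% ± 2.79 (SD, n = 3), with an exact permutation p of 0.0357 and an adjusted p of 0.286. The NR mean rests on replicate 1, that shallowest library at 6.67%, and without it R minus NR went from -1.94 to -0.33 percentage points (adjusted p = 0.610, exact permutation). Clonality, 1 minus the evenness of reads over clonotypes after thinning to 58492 TRBV24 reads, was 0.0241 ± 0.00208 at d105 (SD, n = 18) and 0.0320 ± 0.00454 at d95 (SD, n = 13), leaving out d95 NR replicate 1. The difference averaged over treatments was -0.0081 (adjusted p = 0.00016, permutation within treatments). Among clonotypes with at least 10 reads it reversed to 0.0029 and passed in that direction too (adjusted p = 0.0278, same permutation test). Thinning kept the same 58492 reads there, which is the unfiltered TRBV24 total of d95 PLX+PTX replicate 3. That library falls out if the filter removes any of its reads. The direction thus depended on this filter, and the values with and without it need not rest on the same libraries. None of the other 7 comparisons of clonality, and none of the 8 of the 10 largest clonotypes, passed after adjustment.

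The V segments whose normalised share was most like that of TRBV24 over the 37 libraries were TRBV1 (Pearson r = 0.96 of log2 shares), TRBV19 (0.76) and TRBV30 (0.39). Over the 23 d105 libraries they were TRBV1 (0.63), TRBV19 (0.61) and TRBV29 (0.49), and over the 14 d95 libraries TRBV1 (0.97), TRBV23 (0.68) and TRBV30 (0.56). Shares of 1 library sum to 100%, and the points share depth and day. Of the 4 segments at the same end of the V cluster (TRBV23, TRBV26, TRBV29, TRBV30), 2 were called higher and 0 lower at d105 than at d95, where 41.7% of all 24 segments were higher and 41.7% lower, with a median log2 difference of 0.17 beside 0.02 over all 24. Of 4 segments known as targets of viral superantigens (TRBV1, TRBV19, TRBV26, TRBV29), 1 was called higher and 2 lower against the same background, with a median of -0.21. Neither list had a call in the 7 comparisons within a day.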

How the data were processed

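T cell receptor beta clonotypes were measured in genomic DNA from lymph nodes of 37 mice, 1 library each, so p values measure the spread between these mice. The deposited clone counts are whole reads per CDR3, per the file headers. The deposited normalised clone counts are scores: tested on the files, the authors' values equal reads times 1 factor per V-J pair, rounded, and the sources used here give neither the origin of the factors nor the aligner or build. Only productive CDR3s are listed. The reads are PCR products without molecular identifiers, and Wilson intervals cover counting error only.

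Shares of normalised counts were log2-transformed and compared by limma 3.58.1 (R 4.3.3), adjusted by Benjamini-Hochberg over 24 V and J segments (mean share of at least 0.1%, pseudocount 0.01%), 134 V-J pairs (0.01%, pseudocount 0.001%) or shared clonotypes (pseudocount 10 CPM), at 0.05. The comparisons R against NR, aPD-1 (R and NR together) against PLX+PTX and PLX+PTX against PTX were made within each day, and their change between days as interactions. The comparison of days used the 32 MMTV-PyMT mice only. CDR3 length, hydrophobic residues, the 10 largest clonotypes and clonality were compared by two-sided permutation tests over mice, exact except for 100000 resamples in the comparison of days, and TRBV24 with the other V segments by 100000 sign flips (Python 3.11.15, numpy 2.4.6, pandas 2.3.3). edgeR 4.0.16 and DESeq2 1.42.0 on reads, other scales, filters and pseudocounts, covariates and leaving out each library were alternatives. Of the tests, the limma fits of segments, pairs and clonotypes were checked on simulated data, for R minus NR at d105 only. Described are the TRBV24 pairs and clonotypes past the threshold, the clonotypes found in most libraries and the largest clone of each group. The members and lists were chosen with earlier results of these data known.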

Additional observations from a re-analysis of the deposited data

Results flagged for a closer look

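In 40 combinations of a group of 4 to 10 libraries and a TRBV24 measure, 3 libraries stood apart from their group by Dixon's 95% criterion, which chance alone meets in about 1 in 20 groups. The share of normalised counts of d105 NR replicate 1 was 6.11%, with the nearest of the other 3 at 8.28%. That of d105 PLX+PTX replicate 1 was 8.53%, with the nearest of the other 5 at 7.24%. The share of TRBV24 clonotypes with hydrophobic residues at positions 6 and 7 was 5.39% in d105 R replicate 3, with the nearest at 5.01%. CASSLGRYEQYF differed between days in its PLX+PTX minus PTX difference (log2 interaction -5.09, limma adjusted p = 0.0214), with 0 reads in all 3 d95 PTX libraries.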

How the results depend on the processing

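Of 1330 alternative values for 81 results, 1159 kept their direction and their side of the threshold (or, for counts, stayed within 1.5 times). The log2 difference of TRBV24 share for R minus NR changed sign between settings. At d105 it turned to 0.051 with reads, 0.016 with the second normalised column, 0.024 counting clonotypes once, 0.032 with edgeR and 0.029 with DESeq2. At d95 it turned to 0.031, 0.091, 0.039 and 0.041 with reads, clonotypes once, edgeR and DESeq2, and to 0.21 with log2 total reads as a covariate, which was chosen after seeing the data. Its interaction with day turned to -0.067 (once), -0.0049 (edgeR), -0.011 (DESeq2) and -0.12 (covariate). The aPD-1 interaction passed at 0.35 with reads, 0.45 with edgeR and 0.52 with DESeq2. The number of TRBV24 pairs called for d105 PLX+PTX minus PTX was 0 with reads and 0 with a pseudocount of 0.01. The number of clonotypes called between days was 1 when found in at least 80% of libraries, 8 with a pseudocount of 1 CPM and 13 with reads.

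Mean length turned to 0.0015 residues (d105 PLX+PTX minus PTX, at least 10 reads) and 0.0075 (d95 aPD-1 minus PLX+PTX, normalised weights), and between days fell to 0.0217 and 0.0279 and no longer passed. Hydrophobic residues turned to -0.0640 and -0.0276 points (d105 R minus NR, normalised weights and at least 10 reads), 0.246 (d95 R minus NR, at least 10 reads) and -0.152 (days, normalised weights). Clonality with at least 10 reads turned to 0.00065 (d95 R minus NR) and to 0.0029 (days), which passed the threshold in the other direction. Against other V segments, normalised weights turned TRBJ1-1 to 3.34, TRBJ2-2 to 1.37, TRBJ2-3 to -1.86 and TRBJ2-4 to -1.89 points, reads turned TRBJ1-2 to -0.58, and TRBJ1-1 was 0.16 against the mean of the other segments and 0.20 in d105 libraries. The cause was not tested.

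Leaving out 1 library at a time gave these ranges where a value changed sign, passed or lost the threshold. For log2 share they were -0.13 to 0.030 (d105 R minus NR), -0.17 to 0.052 (d95 R minus NR), -0.68 to -0.19 (d95 aPD-1 minus PLX+PTX), -0.19 to 0.30 (d95 PLX+PTX minus PTX), -0.068 to 0.15 (interaction of R minus NR) and 0.26 to 0.75 (interaction of aPD-1 minus PLX+PTX). Pairs called ran from 0 to 1 (d105 PLX+PTX minus PTX) and 0 to 6 (d95 aPD-1 minus PLX+PTX), and clonotypes called between days from 1 to 8. Mean length ran from -0.0487 to 0.0267 residues (d105 PLX+PTX minus PTX), -0.0034 to 0.0827 (d95 R minus NR) and -0.0019 to 0.0278 (d95 PLX+PTX minus PTX). Hydrophobic residues ran from -0.122 to 0.0356 points (d105 aPD-1 minus PLX+PTX), -0.527 to 0.306 (d105 PLX+PTX minus PTX), -0.271 to 0.338 (d95 R minus NR), -0.287 to 0.0515 (d95 aPD-1 minus PLX+PTX), -0.268 to 0.248 (d95 PLX+PTX minus PTX) and -0.0237 to 0.185 (days). The 10 largest clonotypes ran from -0.0217 to 0.229 points (d105 PLX+PTX minus PTX) and -0.164 to 0.666 (d95 aPD-1 minus PLX+PTX). Clonality ran from -0.00033 to 0.00079 (d105 R minus NR), -0.0017 to 0.0022 (d105 PLX+PTX minus PTX), -0.0046 to 0.0030 (d95 aPD-1 minus PLX+PTX) and -0.0036 to 0.0040 (d95 PLX+PTX minus PTX).

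No paired analysis was possible because the replicate numbers follow accession order and do not pair mice. The d95 libraries were shallower than all d105 libraries, so rare clonotypes are missed more often there. Day, depth and the block of mouse numbers cannot be told apart. The d105 PTX group holds 2 mice.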
